A study of Mus musculus with 14 samples.

Results

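The dystrophin-glycoprotein complex was followed here through 8 genes, Dmd, Utrn, Sgca, Sgcb, Sgcd, Dag1, Dtna and Sspn, taken from the count table by their symbols and making up 8 of 47642 annotated genes with values. RNA was measured in cardiac left ventricles of 14 male mice aged 40 days, 7 UtyGT and 7 WT. UtyGT mice carried UtyGt(XS0378)Wtsi, a gene trap (an inserted splice acceptor with a stop codon) in the fourth intron of the chromosome Y gene Uty, from 1 embryonic stem cell line of 129P2/OlaHsd origin. WT mice were of the isogenic strain C57BL/6.Y<129P2>, so both genotypes carried a 129P2 chromosome Y on a C57BL/6J background, and the labels name no other allele or treatment. Each library came from a different mouse, and numbers such as UtyGT 6 or WT 4 name libraries and pair none of them. The trap is a germline allele, carried by all cell types, and the tissue was whole ventricle, so that more cells of a type and more RNA per cell cannot be told apart in any result below.

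The complex spans the muscle cell membrane. Dystrophin binds actin filaments inside the cell and dystroglycan at the membrane, dystroglycan binds laminin outside the cell, and the sarcoglycans with sarcospan hold this link together in the membrane. In the heart the complex sits along the sarcolemma and at costameres, where it carries force sideways and protects the membrane during contraction, and loss of dystrophin or of a sarcoglycan leads to muscular dystrophy and cardiomyopathy in humans and mice.

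Libraries were made with the QuantSeq 3′ FWD kit, which reads only the end of a transcript next to its poly(A) tail. Levels are therefore read counts scaled to library size by the TMM method (CPM), not divided by transcript length. Gene counts per library ran from 6357485 to 10268706 in UtyGT mice and from 6322161 to 9397378 in WT mice. Uty itself had 1 to 6 counts per UtyGT library and 47 to 75 counts per WT library (log2 fold change -4.22 ± 0.28 SE, edgeR adjusted p = 2.12e-07), so that every library matched its genotype label. Cardiomyocyte markers summed to 65284 to 120671 CPM in UtyGT libraries and 66851 to 138659 CPM in WT libraries, while the 7 skeletal muscle markers summed to 4.00 to 11.7 CPM in UtyGT libraries and 5.22 to 9.81 CPM in WT libraries. The first principal component held 45.75% of the variance and set WT 4 and UtyGT 6 at one end, apart from the other libraries of both genotypes. Results were called at an adjusted p under 0.05 in edgeR's quasi-likelihood test, with adjustment over 11563 tested genes.

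All 8 genes passed the filter on low counts. Dmd and Utrn, which encode dystrophin and its homologue utrophin, rose in UtyGT ventricles to 148% and 136% of the WT mean, and the other 6 genes did not pass the test. In all, 2 of 8 were called, both higher, where 8.03% of all tested genes were called in either direction and 4.7% were called higher and 3.34% lower. An unadjusted p under 0.05 was found for the same 2 genes, and for 24.8% of all tested genes. The median log2 fold change was 0.16 over the 8 genes and 0.0094 over all tested genes. None of the 8 separated the genotypes without overlap, a pattern that 2.14% of tested genes showed.

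Dystrophin is made from several promoters of Dmd (ENSMUSG00000045103, chromosome X, 82948870 to 85206141, plus strand, GRCm38), the gene mutated in Duchenne muscular dystrophy. The promoter of the long muscle form and that of a short form, which lies 2099425 bases downstream, are shown because both feed the 1 count that the table holds for Dmd. The Utrn window listed by RefSeq is shown beside them, since Utrn was the other gene called. It lies at the start of the transcript Utrn-201 (12861735, minus strand). Other annotated Utrn transcripts start farther upstream, such as Utrn-205 at 12869365, and their promoters are not shown. Sequences are from RefSeq (GRCm38.p6), run from 250 bases before to 50 bases after a transcription start, and were found for 7 of the 8 genes. Capitals mark a CArG box, the binding motif of serum response factor, in the first sequence and GC boxes (GGGCGG on either strand) in the second.
Dmd, long form, chrX:82948620-82948919, plus strand: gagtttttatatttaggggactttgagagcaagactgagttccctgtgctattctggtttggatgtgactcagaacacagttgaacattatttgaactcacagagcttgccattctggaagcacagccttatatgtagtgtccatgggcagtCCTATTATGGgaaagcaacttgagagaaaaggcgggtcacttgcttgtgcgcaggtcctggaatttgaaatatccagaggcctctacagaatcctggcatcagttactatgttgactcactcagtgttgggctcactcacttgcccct
Dmd, short form, chrX:85048045-85048344, plus strand: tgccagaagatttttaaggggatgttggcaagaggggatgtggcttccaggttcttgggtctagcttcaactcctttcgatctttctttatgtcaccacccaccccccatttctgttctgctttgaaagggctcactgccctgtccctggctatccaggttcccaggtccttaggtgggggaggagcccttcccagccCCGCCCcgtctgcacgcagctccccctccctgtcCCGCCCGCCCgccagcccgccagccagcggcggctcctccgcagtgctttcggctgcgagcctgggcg
Utrn, chr10:12861686-12861985, minus strand: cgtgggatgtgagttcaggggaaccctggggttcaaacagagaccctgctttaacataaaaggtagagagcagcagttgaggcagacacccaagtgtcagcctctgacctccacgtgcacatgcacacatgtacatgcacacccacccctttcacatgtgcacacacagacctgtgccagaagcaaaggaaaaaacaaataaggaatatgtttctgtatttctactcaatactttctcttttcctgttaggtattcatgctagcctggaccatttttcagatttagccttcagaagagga
The long-form Dmd promoter had 45.67% GC, no GC box, 3 E-boxes (CANNTG), 1 TATA box (TATAAA) and 1 CArG box. The short-form Dmd promoter had 62.67% GC, 3 GC boxes, of which 2 lie side by side and overlap, and no E-box. The Utrn sequence had 46.0% GC, 7 E-boxes and no GC box. Among 32851 mouse promoters of this length, searched on both strands, 35.66% held a GC box, 72.31% an E-box, 13.62% a TATA box and 1.629% a CArG box, and the median GC was 52.67%. These matches describe letters in the windows and nothing more.

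Dmd had 56.9, 72.7 and 87.8 CPM in UtyGT ventricles (lowest, median and highest of 7), against 41.6, 45.6 and 62.5 CPM in WT ventricles. In 6 of 7 UtyGT libraries the level stood above every WT library, and only UtyGT 5 fell inside the WT range, below WT 1. The mean was 73.3 ± 9.37 CPM in UtyGT and 49.5 ± 7.73 CPM in WT (SD, n = 7 each), a log2 fold change of 0.57 ± 0.12 SE (95% interval 0.31 to 0.82, edgeR adjusted p = 0.0113), or 1.48-fold. The gene rested on 301 to 720 counts per library and ranked 191 by p among the 11563 genes. The longest annotated Dmd transcript is 14910 nt long, and a 4438 nt transcript of the short form, known as Dp71, starts at 85048413 and ends close to the long one, at 85205039 against 85206141, so counts at the 3′ end do not separate the forms.

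Utrn (ENSMUSG00000019820, chromosome 10, 12382188 to 12869365, minus strand) encodes the autosomal homologue of dystrophin, which binds the same partners and, in muscle without dystrophin, spreads along the membrane. Its level was 53.8, 65.6 and 75.7 CPM in UtyGT ventricles, against 41.7, 46.9 and 55.6 CPM in WT ventricles. In 5 of 7 UtyGT libraries the level stood above every WT library, and UtyGT 5 and UtyGT 7 lay just under WT 1. The mean was 64.6 ± 9.15 CPM in UtyGT and 47.6 ± 4.47 CPM in WT, a log2 fold change of 0.44 ± 0.11 SE (95% interval 0.21 to 0.67, edgeR adjusted p = 0.0247), or 1.36-fold.

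The level of Utrn over that of Dmd in the same library was 0.769, 0.918 and 1.04 in UtyGT mice (lowest, median and highest) and 0.841, 0.973 and 1.18 in WT mice, so the ranges of this ratio overlapped. Once the genotype means were removed, libraries with more Dmd tended to have more Utrn, with Pearson's r = 0.570 over 14 libraries (permutation p = 0.0323, adjusted over 36 relations p = 0.194) and Spearman's rho = 0.481 (permutation p = 0.0775, adjusted p = 0.398). The relation did not pass the adjusted threshold. It was 0.625 without the 2 libraries farthest from the median, 0.633 within UtyGT and 0.539 within WT.

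**Figure D1:**
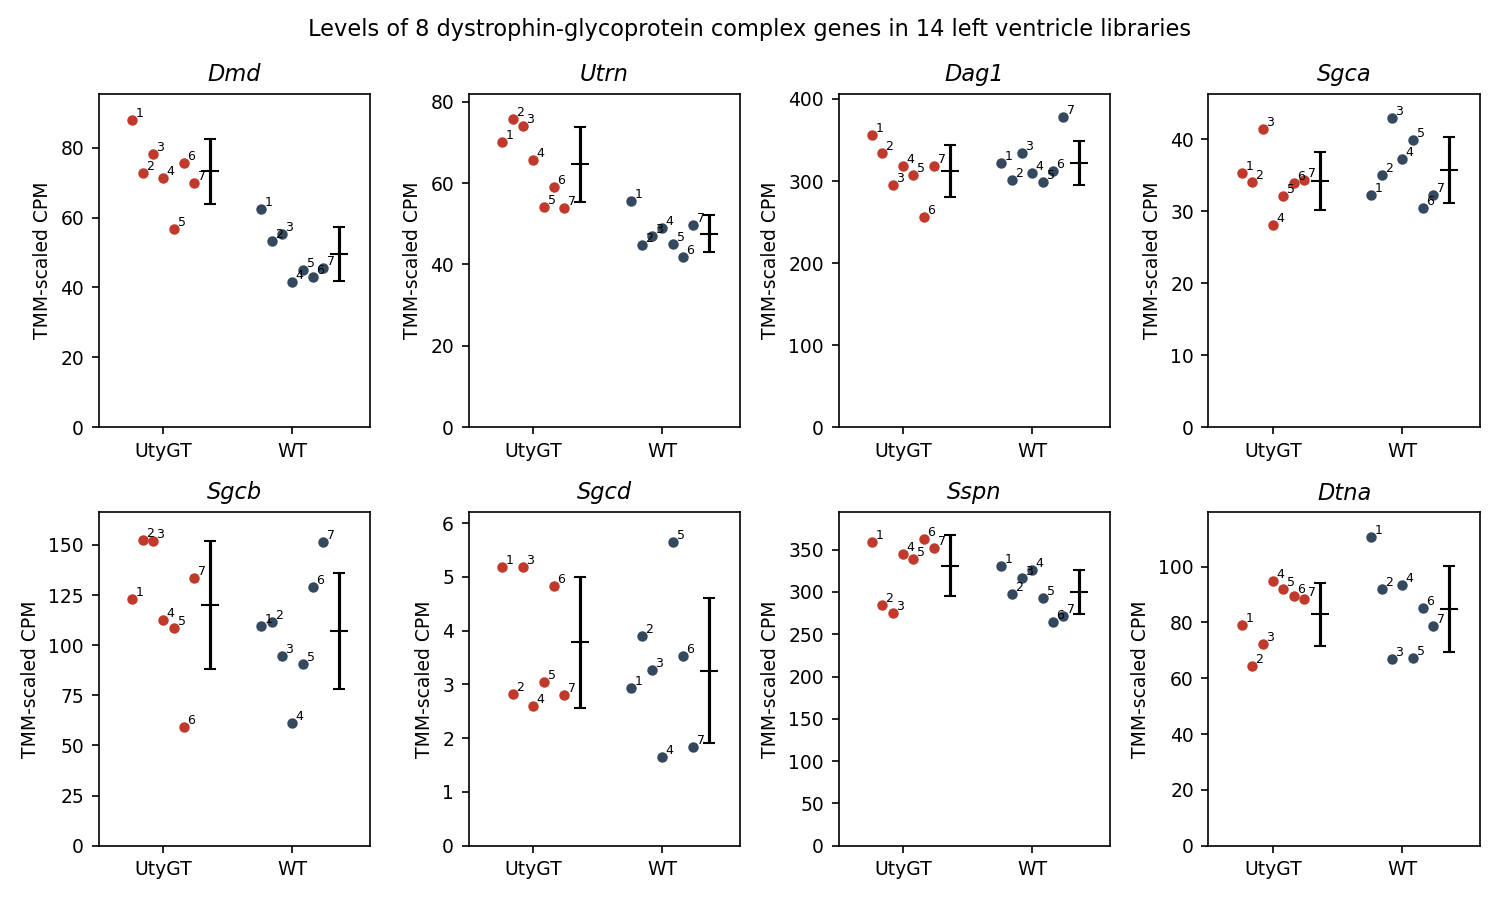
Level of each of the 8 genes in TMM-scaled CPM (vertical axis, from 0) in every library, UtyGT left of WT; points are libraries with their numbers and bars give the mean ± SD (n = 7 each). Dmd and Utrn sit higher in UtyGT (means 73.3 and 64.6 CPM) than in WT (49.5 and 47.6 CPM) with some overlap. For Sspn, which was not called, 5 UtyGT libraries also lie above every WT library, and the remaining genes overlap widely.

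Across all genes, the differences between genotypes varied with the base composition and the length of transcripts. For length only calls and a median are given, and no test was run. The library GC slope is the change of log2 CPM, less each gene's mean over the 14 libraries, per 10 points of transcript GC. It is relative, so with 7 libraries per genotype the group means mirror each other by construction. The slope averaged -0.11 ± 0.15 in UtyGT and 0.11 ± 0.14 in WT (SD, n = 7 each), a difference of -0.23 (exact two-sided permutation p = 0.0163 over 3432 assignments). Earlier results of these data had already shown this slope to move with genotype, so this p is not an independent test. Of the 2988 tested genes under 45% GC, where Dmd (41.5% GC) belongs, 9.71% were called higher and 0.904% lower. In the bin from 45% to 50%, which holds Utrn (47.9% GC), the shares were 5.61% higher and 1.74% lower of 2994 genes. Dmd and Utrn were also among 299 tested genes with a longest transcript of 10000 nt or more, of which 34 were called higher (11.4%) and 4 lower, with a median log2 fold change of 0.16.

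Correcting each library for transcript GC left Dmd at a log2 fold change of 0.39 ± 0.13 SE (edgeR adjusted p = 0.0779) and Utrn at 0.37 ± 0.11 SE (adjusted p = 0.0523), and ended both calls, with 4.81% of all genes called. Correcting for transcript length left Dmd called at 0.40 (adjusted p = 0.0274) and ended the call of Utrn at 0.29 (adjusted p = 0.0834), with 7.07% of all genes called. The GC content of the last 500 nt, a correction chosen after seeing the data, left Dmd called at 0.48 (adjusted p = 0.0246) and Utrn not called at 0.30 (adjusted p = 0.111), with 5.86% of all genes called. Across 26 alternatives Dmd was called in 25, with adjusted p between 0.000285 and 0.0779. Utrn was called in 17 of 26, with adjusted p between 0.00241 and 0.111. Its call was lost without UtyGT 1 or UtyGT 2 (adjusted p = 0.0531 each), UtyGT 3 (0.0585), WT 3 (0.0510) or WT 5 (0.0513), and was kept without WT 4 and UtyGT 6 together (0.0135).

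**Figure D2:**
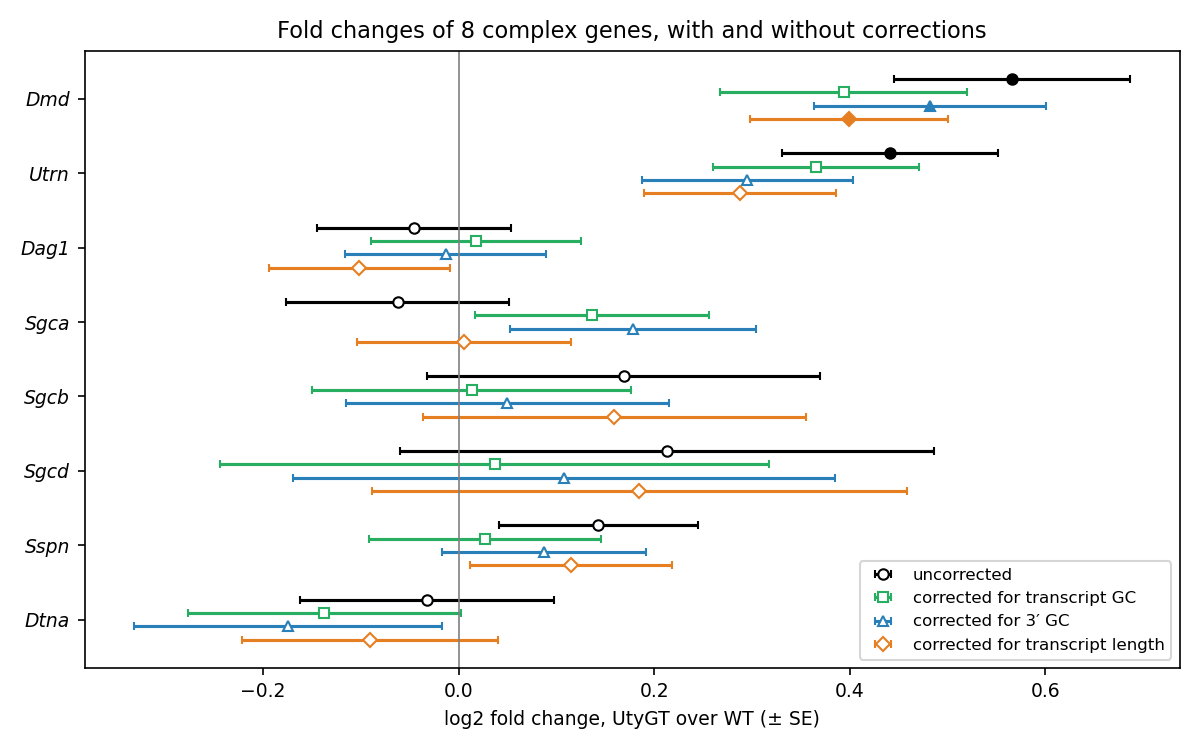
Log2 fold change of UtyGT over WT (horizontal axis, ± SE) of the 8 genes, uncorrected and after correction of each library for transcript GC, for GC of the last 500 nt and for transcript length; filled symbols have an edgeR adjusted p under 0.05. Dmd stays at 0.39 to 0.57 and Utrn at 0.29 to 0.44 in the 4 fits, and no other gene has a filled symbol.

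Dag1 (ENSMUSG00000039952, chromosome 9, 108204634 to 108263958, minus strand) encodes the precursor that is cut into alpha- and beta-dystroglycan, the laminin receptor and its membrane anchor. Its level was 256, 318 and 357 CPM in UtyGT ventricles and 299, 312 and 378 CPM in WT ventricles. UtyGT 6 was the lowest of all libraries and WT 7 the highest, and the genotypes overlapped. The mean was 312 ± 31.7 CPM in UtyGT and 322 ± 27.2 CPM in WT, with a log2 fold change of -0.046 ± 0.10 SE (95% interval -0.25 to 0.16, edgeR adjusted p = 0.815).

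The sarcoglycans are single-pass membrane proteins that assemble as a unit. Sgca (ENSMUSG00000001508, chromosome 11, 94962791 to 94976327, minus strand), for alpha-sarcoglycan of striated muscle, had 28.1, 34.0 and 41.4 CPM in UtyGT and 30.4, 35.1 and 43.0 CPM in WT. Its log2 fold change was -0.062 ± 0.11 SE (95% interval -0.30 to 0.18, edgeR adjusted p = 0.775). Sgca had the highest transcript GC of the 8 genes (56.7%), in the bin of 55% and over in which 0.628% of genes were called higher and 8.08% lower, and its estimate turned to 0.14 (adjusted p = 0.539) under the GC correction. The sign is therefore not settled.

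Sgcb (ENSMUSG00000029156, chromosome 5, 73632749 to 73647790, minus strand), for beta-sarcoglycan, had 59.2, 123 and 152 CPM in UtyGT and 61.2, 109 and 151 CPM in WT. The highest library exceeded the lowest 2.57-fold within UtyGT and 2.48-fold within WT, and the lowest of each genotype were UtyGT 6 and WT 4. The means, 120 ± 32.0 CPM in UtyGT and 107 ± 28.9 CPM in WT, differed by less than the spread between mice (log2 fold change 0.17 ± 0.20 SE, 95% interval -0.25 to 0.59, edgeR adjusted p = 0.646). Changes of the size seen in Dmd and Utrn lie inside this interval, so the comparison does not resolve such a change. The spread of Sgcb between mice followed the library GC slope closely. With genotype means removed, Pearson's r between Sgcb and the slope was -0.961 over 14 libraries (permutation p = 1e-05, the smallest that 100000 resamples can give, adjusted p = 0.00036). Spearman's rho was -0.939 (permutation p = 2e-05, adjusted p = 0.00072), and r was -0.952 without the 2 farthest libraries, UtyGT 3 and WT 4. It was -0.954 within UtyGT and -0.969 within WT.

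**Figure D3:**
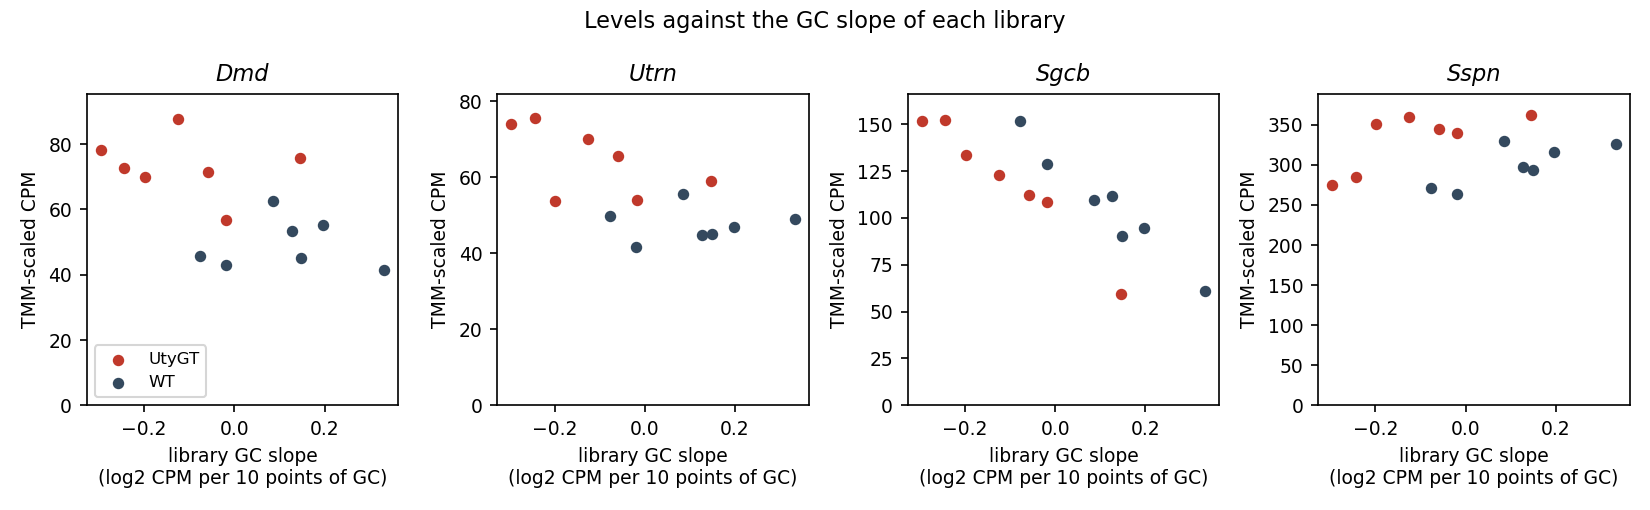
Level of Dmd, Utrn, Sgcb and Sspn in TMM-scaled CPM (vertical axis, from 0) against the library GC slope (horizontal axis, log2 CPM per 10 points of GC), with 1 point per library, UtyGT in red and WT in dark blue. Sgcb falls along the slope in both genotypes (r = -0.954 within UtyGT and -0.969 within WT), while UtyGT libraries lie mostly above WT libraries for Dmd and Utrn.

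Dmd and Utrn did not pass the same test. With genotype means removed, r with the slope was -0.120 for Dmd (permutation p = 0.687, adjusted p = 0.855) with rho = -0.117 (permutation p = 0.704), and r was 0.16 without UtyGT 3 and WT 4. For Utrn r was -0.307 (permutation p = 0.321, adjusted p = 0.769) with rho = -0.354 (permutation p = 0.238) and -0.275 without the same libraries, and it was -0.546 within UtyGT and 0.095 within WT. For Dmd r was -0.219 within UtyGT and -0.027 within WT. Of the 8 genes tested against the slope, Sgcb was the 1 gene that passed. How many of all genes follow the slope was not tested, so the relation cannot be called particular to Sgcb. None of the 28 pairs among the 8 genes passed after adjustment, and the smallest adjusted p among them was that of Sgcb and Sspn (Pearson's r = -0.665, permutation p = 0.0136, adjusted p = 0.163, and rho = -0.631, permutation p = 0.0230, adjusted p = 0.373), with r = -0.694 without UtyGT 6 and WT 4.

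Sgcd (ENSMUSG00000020354, chromosome 11, 46896253 to 47988969, minus strand), for delta-sarcoglycan, whose loss causes the cardiomyopathy of a well-known hamster strain, was the least counted of the 8 genes, at 12 to 48 counts per library. It had 2.61, 3.05 and 5.19 CPM in UtyGT and 1.66, 3.27 and 5.66 CPM in WT, with fully overlapping ranges. The log2 fold change of 0.21 ± 0.27 SE had the widest interval of the 8 genes (95% interval -0.36 to 0.79, edgeR adjusted p = 0.673), and changes of the size seen in Dmd and Utrn lie inside it, so that this comparison does not resolve such a change.

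Sspn (ENSMUSG00000030255, chromosome 6, 145931641 to 145965223, plus strand) encodes sarcospan, a small protein that crosses the membrane several times and joins the sarcoglycans. Its level was 275, 345 and 362 CPM in UtyGT ventricles and 264, 297 and 330 CPM in WT ventricles. In 5 of 7 UtyGT libraries it stood above every WT library, with UtyGT 2 and UtyGT 3 low. The mean was 331 ± 36.0 CPM in UtyGT and 299.8 ± 25.8 CPM in WT, and the log2 fold change of 0.14 ± 0.10 SE did not pass the test (95% interval -0.07 to 0.36, edgeR adjusted p = 0.401). Its relation to the library GC slope ran opposite to that of Sgcb, with Pearson's r = 0.746 (permutation p = 0.00393, adjusted p = 0.0707) and rho = 0.591 (permutation p = 0.0375, adjusted p = 0.373), and r was 0.644 without UtyGT 3 and WT 4. It did not pass the adjusted threshold.

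Dtna (ENSMUSG00000024302, chromosome 18, 23415135 to 23659715, plus strand) encodes alpha-dystrobrevin, which binds dystrophin and the syntrophins on the inner face of the membrane. It had 64.4, 88.2 and 94.9 CPM in UtyGT and 66.9, 85.0 and 110 CPM in WT, and WT 1 was the highest of all libraries. The means of 82.9 ± 11.3 CPM in UtyGT and 84.8 ± 15.5 CPM in WT differed by less than the spread between mice (log2 fold change -0.032 ± 0.13 SE, 95% interval -0.31 to 0.24, edgeR adjusted p = 0.906). The sign turned to 0.022 without scaling for composition, and also without UtyGT 2 or without WT 1.

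Where genes that overlap these 8 loci had counts in the table, they summed to at most 60 counts over all libraries, against 396 to 34821 counts for the 8 genes. None of them lay at the 3′ end of a locus, where the reads fall.

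Of 9 further genes for subunits or close partners of the complex, 2 were tested, while Sgcz, Sntb1, Sntg1, Sntg2, Dtnb, Drp2 and Nos1 had too few counts, with Sntg1 at 0 in every library. Neither tested gene was called by edgeR, limma voom or DESeq2, and 1 had an unadjusted p under 0.05 in edgeR. Sgce, for epsilon-sarcoglycan, a homologue of alpha-sarcoglycan found in many tissues, had 1.47, 5.05 and 8.71 CPM in UtyGT and 1.24, 3.77 and 8.90 CPM in WT. The ranges overlapped fully, and as for Sgcb the lowest libraries were UtyGT 6 and WT 4. The mean was 5.51 ± 2.53 CPM in UtyGT and 4.26 ± 2.58 CPM in WT (log2 fold change 0.37 ± 0.38 SE, 95% interval -0.44 to 1.18, edgeR adjusted p = 0.588). Sntb2, for beta-2-syntrophin, an adaptor that binds dystrophin and utrophin, averaged 11.9 ± 2.85 CPM in UtyGT and 8.80 ± 2.06 CPM in WT (log2 fold change 0.44 ± 0.18 SE, edgeR adjusted p = 0.143).

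Next come 3 wider lists. Of all tested genes, 8.03% were called and 24.8% had an unadjusted p under 0.05 in edgeR. None of the 16 genes for enzymes that build the laminin-binding sugars of dystroglycan was called by edgeR, limma voom or DESeq2, 2 had an unadjusted p under 0.05 in edgeR, and their median log2 fold change was 0.093. Of 16 laminin and matrix genes 1 was called, Col6a2, for the alpha-2 chain of collagen VI. It averaged 38.0 ± 7.47 CPM in UtyGT and 61.6 ± 14.7 CPM in WT with ranges of 29.0 to 48.6 CPM in UtyGT and 43.7 to 88.4 CPM in WT (log2 fold change -0.69 ± 0.16 SE, edgeR adjusted p = 0.0155), and it stayed called in all 26 alternatives run, with adjusted p of 0.000192 to 0.0398. In that list 5 genes had an unadjusted p under 0.05 in edgeR, and the median was -0.016.

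Of 18 costamere genes none was called in the reported edgeR fit or by limma voom, 6 had an unadjusted p under 0.05 in edgeR, and the median was -0.016. Tln2, for talin-2 of the integrin link to actin, was the 1 gene of the 4 lists whose genotypes did not overlap. Of all tested genes 2.14% showed no overlap, and Tln2 is named after its values were seen. It had 57.8 to 74.8 CPM in UtyGT and 38.0 to 56.2 CPM in WT (log2 fold change 0.36, edgeR adjusted p = 0.0580). It was called higher by DESeq2, with no composition scaling, with surrogate variables and under both GC corrections. It was not called with RLE scaling, with either other count filter, under the length correction, by limma voom, or without WT 4 and UtyGT 6. Over the 4 lists together, 0 of 52 tested genes were called higher and 1 lower by edgeR, with a median of 0.026. Of all tested genes, 4.7% were called higher and 3.34% lower.

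**Figure D4:**
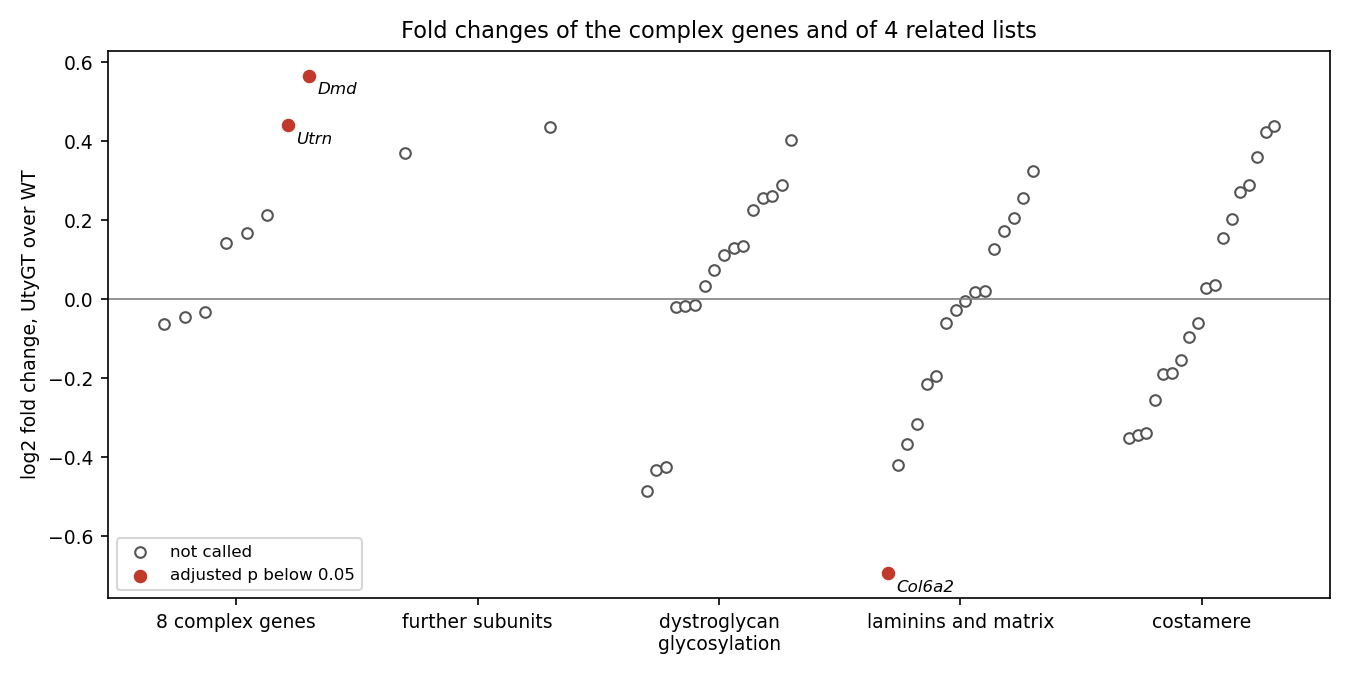
Log2 fold change of UtyGT over WT (vertical axis) for the 8 complex genes and for the tested genes of 4 related lists, each list sorted from low to high; red points have an edgeR adjusted p under 0.05. The called genes are Dmd and Utrn above 0 and Col6a2 below it.

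Some markers of cell types of the ventricle were called. Of all tested genes 8.03% were called and 24.8% had an unadjusted p under 0.05. Of 9 cardiomyocyte markers 7 were not called, 3 had an unadjusted p under 0.05, and the median log2 fold change was -0.055. Ryr2, the calcium release channel, was called higher (log2 fold change 0.42, edgeR adjusted p = 0.0347) and Mb, myoglobin, lower (-0.74, adjusted p = 0.0419). Neither was called under either GC correction, and Ryr2 was also not called under the length correction or with no count filter.

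Of 7 endothelial markers 6 had a negative and 1 a positive log2 fold change, with a median of -0.40, and 5 had an unadjusted p under 0.05 in edgeR. Called lower were Pecam1 (-0.51, adjusted p = 0.0326) and Tie1 (-0.50, adjusted p = 0.0394). Tie1 was not called under either GC correction, with no composition scaling, with no count filter, or without WT 4 and UtyGT 6. Egfl7 (-0.66, edgeR adjusted p = 0.05004) just missed the threshold. Among other fits, limma voom, DESeq2 and RLE scaling called Egfl7 lower, and the GC, 3′ GC and length corrections did not. With surrogate variables 5 of the endothelial markers were called lower and 1 higher. The list summed to 724 to 2260 CPM in UtyGT and 1081 to 1802 CPM in WT, and most of that sum was Fabp4, the 1 marker with a positive value, at 1080 ± 533 CPM in UtyGT and 577 ± 338 CPM in WT (log2 fold change 0.91, adjusted p = 0.186).

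Of 5 red cell markers 2 globin genes, Hba-a1 and Hba-a2, were called lower and 3 had an unadjusted p under 0.05. The list summed to 1071 to 5117 CPM in UtyGT and 3192 to 6874 CPM in WT. Hba-a2 was not called under the GC correction, and neither globin gene under the 3′ GC correction or with no count filter. In the reported edgeR fit and by limma voom none of the 7 fibroblast, 6 mural, 7 myeloid, 3 tested glial and 4 atrial markers was called, and DESeq2 called 1 mural marker, Kcnj8. The unadjusted p in edgeR was under 0.05 for 1 fibroblast, 3 mural, 2 myeloid, 1 glial and 0 atrial markers. Log2 fold changes were positive for 6 of 6 mural markers (median 0.40) and 6 of 7 fibroblast markers (median 0.099). They were positive for 5 of 7 myeloid (median 0.044), 3 of 3 tested glial (median 0.49) and 1 of 4 atrial markers (median -0.019). With surrogate variables 2 fibroblast and 2 mural markers were called higher, and 1 myeloid marker was called higher and 1 lower. Without WT 4 and UtyGT 6, 1 fibroblast and 1 mural marker were called higher and 1 myeloid marker lower. The part of these shifts, of the GC slope and of transcript length in the results for Dmd and Utrn was not tested.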

How the data were processed

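The 14 libraries (7 UtyGT and 7 WT left ventricles, 1 mouse each) were of the QuantSeq 3′ FWD kind. According to the study's methods, the authors used the Bluebee platform for alignment (GRCm38/mm10) and featureCounts v1.6.0 with Ensembl v98 gene models for the deposited counts. CASAVA 1.4, FastQC, STAR and DESeq2 1.22.2 also appear in the submitters' processing notes. Among the deposited rows 5 name no gene and took 45.9% to 49.1% of reads per library; these were left out of totals and tests. Their form is that of another counter, so the strand setting is not settled. A further 4984 entries without values were left out. The deposited baseMean (a signal, mean normalized counts), log2 fold changes with their errors, test scores and p-values are the authors' own DESeq2 comparison and were not used.

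Column names gave the genotype but not the animal. Counts were scaled by TMM, filtered with filterByExpr (minimum count 10) and tested with edgeR 4.0.16 (R 4.3.3, quasi-likelihood F test, genotype only) with Benjamini-Hochberg adjustment over 11563 genes. The biological coefficient of variation was 26.18%. Alternatives were RLE or no composition scaling, 2 other count filters, lowess corrections (span 0.3) for transcript GC, length or GC of the last 500 nt, removal of the 10 most abundant and the mitochondrial genes, limma 3.58.1 voom, DESeq2 1.42.0, 1 sva 3.50.0 surrogate variable, and leaving out each library, or WT 4 with UtyGT 6. GC and length are of the longest GENCODE M21 transcript, matched for 47223 of 47642 genes. Rxylt1 was matched as Tmem5. Correlations used log2 CPM less the genotype mean and 100000 permutations within genotype. Named genes are the 8 complex genes, Uty, Sgce and called genes of each list, with Sntb2, Tln2 and Egfl7 named after their values were seen. Some genes of the lists are not reported here. The 8 genes, all lists and the GC slope were chosen with earlier results of these data known.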

Additional observations from a re-analysis of the deposited data

How the results depend on the processing

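Dmd kept its direction in all 26 alternatives and its call in all but the GC correction (log2 fold change 0.39). Utrn kept its direction and lost its call with no count filter (0.43), the GC correction (0.37), the length correction (0.29) and the 3′ GC correction chosen after seeing the data (0.30). Leaving out single libraries gave 0.40 to 0.48. Of the 8 complex genes, 2 were called in the reported fit, 1 with no count filter, 0 with the GC correction, 1 with the length correction, 1 with the 3′ GC correction, and 1 to 2 without single libraries. The sign turned for Sgca under the GC (0.14), length (0.0053) and 3′ GC (0.18) corrections, for Dag1 under the GC correction (0.018), for Dtna with no composition scaling (0.022; -0.082 to 0.026 without single libraries), and for the correlation of Dmd with the GC slope without UtyGT 3 and WT 4 (0.16); none of these was called. For Sgcd the same correlation was 0.0027, and 0.55 without them. Sgcb, Sgcd and Sspn kept a positive value that was not called, but its size moved: 0.013 (GC correction) to 0.27 (without WT 7) for Sgcb, 0.033 (without WT 4 and UtyGT 6) to 0.40 (without WT 5) for Sgcd, and 0.027 (GC correction) to 0.20 (no composition scaling) for Sspn. The difference in GC slope kept direction and side of the threshold in every alternative run.

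The 4 related lists held 1 called gene, 2 with no composition scaling, 2 with the GC correction, 2 with the 3′ GC correction, 3 with the length correction, 3 with DESeq2, 10 with surrogate variables, 6 without WT 4 and UtyGT 6, and 1 to 8 without single libraries, the 8 without UtyGT 6. Calls over all genes numbered 929 in the reported fit, 612 with no count filter, 556 with the GC correction, 1407 with DESeq2, 2495 with surrogate variables, 1630 without WT 4 and UtyGT 6, and 446 (without UtyGT 7) to 2248 (without UtyGT 6) without single libraries. Beyond these, the cause was not tested. No paired analysis was possible because the columns' numbers name libraries only and the labels number animals without pairing them across genotypes.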
